A study of Mus musculus with 2 samples.

Results

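The enzymes that activate, import and oxidise fatty acids, and those that handle ketone bodies, were followed through 34 genes in interscapular brown adipose tissue (iBAT), the fat depot between the shoulder blades that burns fuel to make heat. A gene was a member where its symbol stood in the count tables of both libraries under 1 of 34 listed names, and all 34 were found among the 27179 genes listed. The 2 libraries came from untreated C57BL/6N mice at an age of 20 days, described as male: 1 from wild-type (WT) animals and 1 from animals with a Ucp1 knockout (Ucp1-KO, Δ/Δ), each a pool of iBAT from 3 animals. The question was how the transcripts of tissue with the Ucp1 knockout differ from those of WT tissue. UCP1, uncoupling protein 1, lets the mitochondrial proton gradient run down as heat. There are no replicates, so each difference below is one between these 2 libraries, and how much animals of a genotype vary is unknown.

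A long-chain fatty acid is first joined to coenzyme A, then passed into the mitochondrion as a carnitine ester, and then shortened in a repeating spiral of 4 reactions whose electrons enter the respiratory chain through flavoproteins. The products are acetyl-CoA for the tricarboxylic acid cycle and, in liver, ketone bodies that other tissues turn back into acetyl-CoA. Brown fat is rich in this machinery, since fatty acids are both its main fuel and the activators of UCP1.

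The WT library held 52950913 counts and the Ucp1-KO library 53216727. Ucp1 itself had 366473 and 37853 counts, so the Ucp1-KO library held 12.7% of the WT level (95% counting interval 12.5% to 12.9%) and not 0, and whether the counted reads lie in the deleted stretch is not given in the sources used here. Transcripts of mitochondrial DNA took 22.4% of the WT and 36.7% of the Ucp1-KO counts. The summed counts of 4 Y-linked genes were 0 in the WT and 5305 in the Ucp1-KO library, and Xist had 32380 and 16478 counts. The WT counts thus go against the description of the animals as male, and the Ucp1-KO library held both Y-linked and Xist counts. Genotype and the sex of the pooled animals therefore cannot be told apart in any value below. Skeletal muscle markers went from 0.709% to 0.0858% of all counts between WT and Ucp1-KO, and each of the 24 was lower by 2-fold or more. The 10 brown adipocyte markers were present in both libraries, with 0.372% of WT and 0.440% of Ucp1-KO counts in sum. By normalised counts, 6 of them were higher in Ucp1-KO and 4 lower.

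Values are given as normalised counts, which are the deposited counts divided by size factors of 1.11 (WT) and 0.901 (Ucp1-KO), and as the log2 ratio of Ucp1-KO over WT. Where genes are compared with each other, normalised counts per kb of canonical transcript are used. The range after a log2 ratio is its 95% counting interval, computed on read pairs (counts divided by 2), and a member is called higher or lower beyond counting error where that interval leaves out 0. Such an interval holds nothing but counting error, and without molecular identifiers reads cannot be taken as independent molecules. Scaling both libraries to equal total counts lowers every log2 ratio, and with them the median of all genes, by 0.31, and scaling to 10 adipocyte markers lowers it by 0.20. The members that change direction under either are named with each group.

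Of the 34 members, 33 had a mean normalised count of at least 10 and were examined, and the remaining gene was Acsl6. Their median log2 ratio was 0.27, against -0.0016 for all 15212 genes examined, and 28 members lay above 0 and 5 below it. Of all genes examined, 49.9% lay above 0. Most members were abundant, and 31 of the 33 averaged 1000 normalised counts or more. The 6395 genes that abundant had a median of 0.056, and 56.0% of them lay above 0. Their upper quartile was 0.31, so the members' median was under it. With total-count scaling the members' median was -0.038 while that of all 15212 genes was -0.31. A change of scaling shifts every log2 ratio by the same amount. The distance of the members' median above that of all genes examined is therefore fixed, and comparing it between scalings tests nothing. Only 3 members were at least 2-fold higher, Slc27a2, Acss1 and Bdh1, where 7.42% of all genes examined were. None of the 33 was at least 2-fold lower, where 9.55% of all genes were. By the size of single differences the share of members that were higher, 9.09%, was thus near that of all genes. That share counts Bdh1, which had 6 and 18 counts and a counting interval that includes 0.

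Most members leaned the same way by a small amount. Of the 33, 26 were higher beyond counting error, where 31.5% of all genes were, and 3 were lower, where 30.5% of all genes were. Counting intervals are narrow for abundant genes, and 31 members had a mean normalised count of at least 1000. Of these 31, 26 were higher beyond counting error, against 44% of the 6395 genes at that level, and 3 were lower, against 32.9%. At the same level 2 members (6.45%) were at least 2-fold higher, against 2.63% of genes, and 0 were at least 2-fold lower, against 2.86%. On the counts as deposited, not divided by 2, 28 of the 33 were higher and 4 lower, with Bdh1, Cpt1b and Slc27a1 the members whose call changed. With total-count scaling 11 members were higher and 17 lower beyond counting error, so the direction of the small differences rests on the scaling. Total counts without the genes of mitochondrial DNA gave 25 higher and 4 lower, and scaling to the adipocyte markers gave 17 and 10. In bulk tissue, fewer cells of a type and less RNA per cell cannot be told apart.

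**Figure D1:**
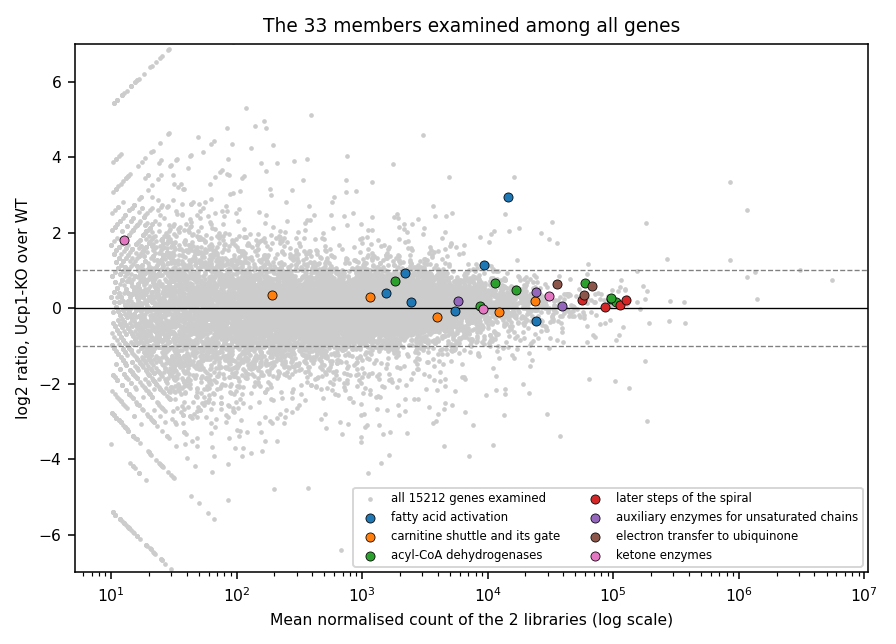
Log2 ratio of Ucp1-KO over WT (vertical axis) against the mean normalised count of the 2 libraries (horizontal axis, log scale) for the 15212 genes examined (grey) and the 33 members examined (coloured by role); dashed lines mark 2-fold, and 12 genes lie beyond the vertical axis. The members sit among the abundant genes and mostly a little above 0, with Slc27a2 at 2.94 apart from the rest; with total-count scaling every point would lie 0.31 lower and 13 of the members called higher here would fall below 0.

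Together the members held 2.18% of all WT counts, with an exact binomial interval from 2.17% to 2.18%. In the Ucp1-KO library they held 2.14% (2.13% to 2.14%). Out of the counts that are not of mitochondrial DNA, they held 2.80% and 3.37%. The programme was therefore a slightly smaller part of all reads and a larger part of the nuclear transcripts in the Ucp1-KO library. Per kb, the levels spanned more than 4 orders of magnitude. In the WT library Acaa2 was highest (66000 normalised counts per kb), followed by Etfb (60578), Hadhb (54136), Acadvl (45135) and Acadm (42575). In the Ucp1-KO library the same 5 genes led, with Etfb (90907) ahead of Acaa2 (77306) and Acadm (51292) ahead of Acadvl (50223). At the other end both libraries had Cpt1a, Cpt1b, Bdh1 and Acsl6, in that order. The place of Cpt1b is uncertain, because Gm44502 covers 68.5% of its exon length on the same strand.

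**Figure D2:**
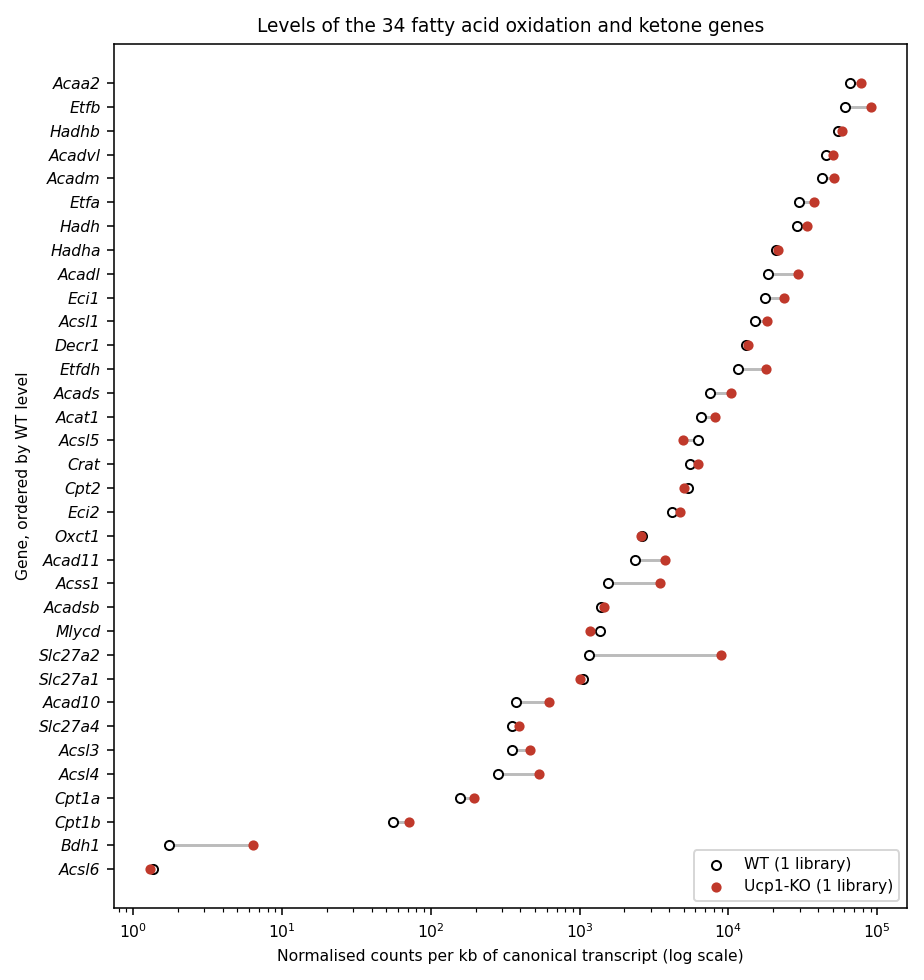
Level of each of the 34 members in normalised counts per kb of canonical transcript (horizontal axis, log scale), ordered by the WT level, with the WT library as open and the Ucp1-KO library as filled points. Most pairs of points nearly touch, while Slc27a2 moves from 1156 to 8844 and passes from place 25 to place 15 of 34.

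Of the 7 roles, fatty acid activation ran over the widest range of log2 ratios, from -0.34 to 2.94, its upper end being Slc27a2 alone. Its 9 members are 5 long-chain acyl-CoA synthetases, which join fatty acids to coenzyme A, 3 fatty acid transport proteins with the same activity, and Acss1, which activates acetate in the mitochondrion. The median log2 ratio of the 8 examined was 0.33, with 6 higher and 1 lower beyond counting error.

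Slc27a2 (Entrez gene 26458, chr2:126394327-126430166 of GRCm39, plus strand) encodes the very-long-chain acyl-CoA synthetase and transport protein FATP2. It had 3741 counts in the WT and 23261 in the Ucp1-KO library, or 3372 and 25807 normalised counts. The log2 ratio was 2.94 (2.87 to 3.01), a 7.65-fold difference, and it remained at 2.63 with total counts. The gene was the furthest from 0 of the 33 members. The other transport proteins among the members differed far less. Slc27a1, which encodes the transport protein FATP1 of muscle and fat, had 5641 and 5384 normalised counts, a log2 ratio of -0.067 (-0.14 to 0.0098, or -0.12 to -0.013 on the counts as deposited). Slc27a4, which encodes FATP4, had 2298 and 2574, a log2 ratio of 0.16 (0.048 to 0.28) that turned to -0.14 with total counts and to -0.039 when scaled to the adipocyte markers. Per kb, Slc27a2 made up 45.2% of the 3 genes' transcripts in the WT and 86.4% in the Ucp1-KO library. Slc27a1 made up 41.1% and 9.80%. The ratio of Slc27a2 to Slc27a1 per kb, which no scaling can change, went from 1.10 (1.04 to 1.16) to 8.81 (8.44 to 9.21).

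Acss1 (Entrez gene 68738, chr2:150460020-150510420 of GRCm39, minus strand) was next among the abundant members. It had 6420 and 11547 counts, or 5787 and 12811 normalised counts. The log2 ratio was 1.15 (1.08 to 1.21), a 2.21-fold difference, which with total counts was 0.84 and so under 2-fold. Acss2, the cytosolic enzyme for the same reaction that feeds acetate to lipid synthesis, is no member and was picked after its values were seen. It had 10752 and 4877 counts and so a log2 ratio of -0.84 (-0.91 to -0.77). The ratio of the mitochondrial to the cytosolic enzyme per kb thereby went from 0.483 (0.462 to 0.505) to 1.92 (1.83 to 2.01), and the order of the 2 genes changed over.

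The 250 bases before the RefSeq start sites of these 2 genes are shown because they are the abundant members with the largest differences. Both are from GRCm38.p6 and are written 5′ to 3′ on the gene's own strand, Slc27a2 from chr2:126552774-126553023 (plus) and Acss1 from chr2:150668241-150668490 (minus). Capitals mark a nuclear receptor half-site (AGGTCA on either strand), which begins 220 bases before the start of Slc27a2 and is not in the Acss1 stretch.
Slc27a2: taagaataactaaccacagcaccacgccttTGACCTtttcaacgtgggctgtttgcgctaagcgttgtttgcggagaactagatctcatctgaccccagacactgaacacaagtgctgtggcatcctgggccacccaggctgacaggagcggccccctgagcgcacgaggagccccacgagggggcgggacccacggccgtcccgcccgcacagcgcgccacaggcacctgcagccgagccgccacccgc
Acss1: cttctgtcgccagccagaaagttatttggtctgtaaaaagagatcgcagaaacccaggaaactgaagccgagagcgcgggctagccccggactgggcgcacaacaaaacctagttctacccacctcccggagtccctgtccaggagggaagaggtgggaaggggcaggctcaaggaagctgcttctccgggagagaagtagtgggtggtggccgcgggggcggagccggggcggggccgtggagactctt

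Short elements that bind regulators of lipid genes were counted in windows from 250 bases before to 50 bases after each RefSeq start. The table had 35 windows for 29 of the members and none for Cpt1b, Crat, Acaa2, Decr1 and Acat1. A direct repeat of AGGNCA with 1 base between the copies (the form bound by peroxisome proliferator-activated receptors) was in 0 of the 35 windows and in 0.381% of all 32851. The oestrogen-related receptor element (TCAAGGTCA) was in 1 window, that of Acsl6, and in 0.423% of all. The cyclic AMP element (TGACGTCA) was in 0 and in 1.79% of all. The half-site AGGTCA, added after the counts were seen and contained in the oestrogen-related receptor element, was in the windows of Acadm, Acadvl, Acsl6, Cpt1a and Slc27a2, 14.3% of the members' windows against 16.3% of all. Each was searched on both strands. The members' windows had a median GC content of 61.3%, against 52.7% for all windows. A match is one of letters and does not mark a site that is used.

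Among the long-chain synthetases, Acsl1, the main form of fat cells, had 87362 and 104338 normalised counts, a log2 ratio of 0.26 (0.24 to 0.27) that was -0.051 with total counts. Acsl5, which lies on mitochondria and the endoplasmic reticulum, had 27213 and 21428, a log2 ratio of -0.34 (-0.38 to -0.31), the lowest of all members. Its exons overlap Zdhhc6 on the opposite strand over 37.3% of their length, and how strand was treated in counting is not given in the sources used here. Acsl4, which prefers arachidonic acid, lies on the X chromosome. It had 1516 and 2868 normalised counts, a log2 ratio of 0.92 (0.79 to 1.05), a 1.89-fold difference just inside the 2-fold line. Acsl3, a lipid droplet and endoplasmic reticulum form, had 1336 and 1756, a log2 ratio of 0.39 (0.25 to 0.54), and shares 15.4% of its exon length with Utp14b on the same strand. Acsl6, the form of brain, had only 9 and 7 counts and an interval of -2.59 to 2.31, so no difference was detectable at this depth. Per kb, Acsl1 went from 68.7% to 75.3% of the 5 genes' transcripts and Acsl5 from 28.4% to 20.5%. Acsl4 went from 1.28% to 2.22%.

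**Figure D3:**
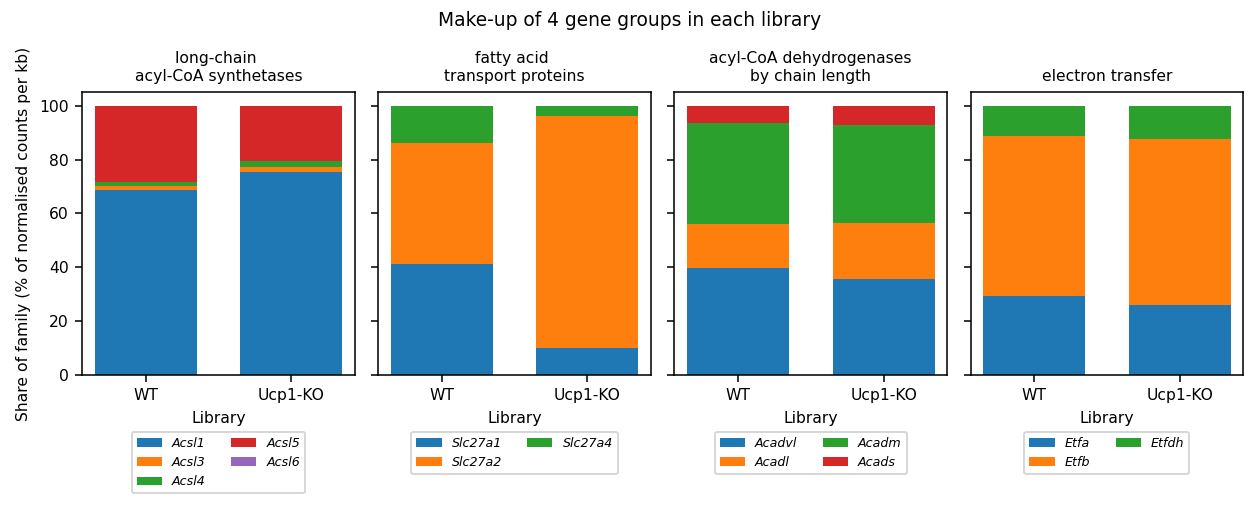
Make-up of 4 groups of related genes in the WT and the Ucp1-KO library (vertical axis, share of the group's normalised counts per kb in percent; each stack adds to 100). The transport proteins among the members shift to Slc27a2, from 45.2% to 86.4%. The share of any acyl-CoA dehydrogenase or electron transfer gene shown moves by less than 5 percentage points. Shares within a library do not depend on scaling.

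The carnitine shuttle carries acyl groups over the mitochondrial inner membrane, and its 5 members had a median log2 ratio of 0.18 (-0.12 with total counts and -0.019 when scaled to the adipocyte markers), with 2 higher, 2 lower and 1 within counting error. Cpt1a and Cpt1b encode the liver and muscle forms of carnitine palmitoyltransferase 1, the gate of the pathway that malonyl-CoA inhibits. Cpt1a had 1036 and 1279 normalised counts, a log2 ratio of 0.30 (0.14 to 0.47) that was -0.0022 with total counts. Cpt1b had 188 and 195 counts and so a log2 ratio of 0.35 (-0.071 to 0.78), which includes 0, while on the counts as deposited the interval is 0.056 to 0.65. The level of Cpt1b is uncertain, because the read-through gene Gm44502, which joins Chkb to Cpt1b, covers 68.5% of its exon length on the same strand. Gm44502 was listed at 0 in both libraries and Chkb had 11 and 7 counts, and the part of this overlap in the low count of Cpt1b was not tested. Per kb, Cpt1b lay below Cpt1a in both libraries, with 55.5 and 70.8 against 157 and 194 normalised counts.

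The other shuttle genes differed little. Cpt2, which frees the acyl group on the matrix side, had 12689 and 11870 normalised counts, a log2 ratio of -0.096 (-0.15 to -0.045). Crat, which makes acetyl-carnitine and so buffers acetyl-CoA, had 22313 and 25346, a log2 ratio of 0.18 (0.15 to 0.22) that was -0.12 with total counts and -0.019 when scaled to the adipocyte markers. The ratio of Crat to Cpt2 per kb went from 1.03 (1.00 to 1.07) to 1.26 (1.22 to 1.30). Mlycd encodes the decarboxylase that removes malonyl-CoA and thereby opens the gate. It had 4253 and 3639 normalised counts, a log2 ratio of -0.22 (-0.32 to -0.13). Acaca and Acacb, the carboxylases that make malonyl-CoA, had log2 ratios of -1.87 (-1.90 to -1.85) and -0.53 (-0.56 to -0.50) and were picked for this comparison after their values were seen. Mlycd was thus lower by less than either of them.

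The acyl-CoA dehydrogenases take the first oxidative step, each for its own chain length. All 7 were higher beyond counting error, with a median log2 ratio of 0.47, but Acadvl, Acadm and Acadsb turned to -0.15, -0.038 and -0.24 with total counts, and Acadvl and Acadsb to -0.049 and -0.14 when scaled to the adipocyte markers. Acadl, the long-chain enzyme, had 46324 and 73056 normalised counts, a log2 ratio of 0.66 (0.63 to 0.68). Acads, the short-chain enzyme, had 13951 and 19370, a log2 ratio of 0.47 (0.43 to 0.52). The 2 most abundant enzymes differed less. Acadvl, the very-long-chain enzyme of the inner membrane, had 99749 and 110994, a log2 ratio of 0.15 (0.14 to 0.17). Acadm, the medium-chain enzyme, had 87620 and 105559, a log2 ratio of 0.27 (0.25 to 0.29). Acadl thus gained on both, from 0.411 (0.405 to 0.417) to 0.582 (0.574 to 0.590) of Acadvl per kb and from 0.436 (0.429 to 0.442) to 0.570 (0.562 to 0.578) of Acadm. Over 38.2% of their length the exons of Acadvl overlap Dvl2, on the opposite strand, but Dvl2 had only 518 and 416 counts.

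Of the remaining dehydrogenases, Acad10 and Acad11, less studied members of the family, stood at 0.73 (0.59 to 0.87) and 0.68 (0.63 to 0.73). Acad10 had 1368 and 2268 normalised counts and Acad11 had 8786 and 14071. Acadsb, which works on branched short chains from isoleucine, had 8530 and 8910, a log2 ratio of 0.063 (0.0019 to 0.12). Acad10, Acad11 and Acadl thus had the largest differences of the 7, and none of the 7 reached 2-fold.

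**Figure D4:**
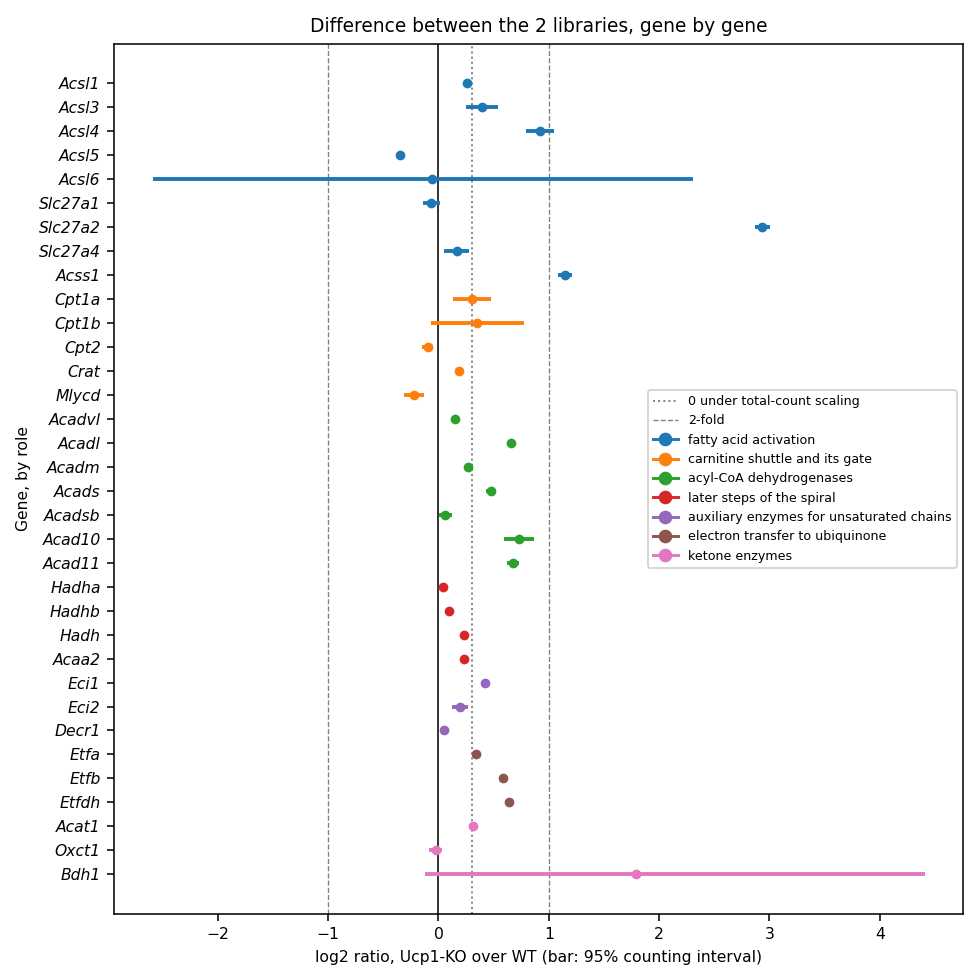
Log2 ratio of Ucp1-KO over WT for each of the 34 members (horizontal axis; bars are 95% counting intervals, often narrower than the point), grouped and coloured by role on the vertical axis. The solid line is 0 with median-of-ratios scaling and the dotted line, at 0.31, is where 0 falls with total-count scaling; 13 members called higher lie between them, among them all 4 genes of the later steps, while Acadl, Etfb, Etfdh, Acss1 and Slc27a2 lie to the right of both.

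The later steps of the spiral had the lowest median of the 7 roles. Hadha and Hadhb encode the 2 subunits of the trifunctional protein, which hydrates, oxidises and cleaves long chains, Hadh the dehydrogenase for shorter chains, and Acaa2 the last thiolase. Their median log2 ratio was 0.16 (-0.041 when scaled to the adipocyte markers), and all 4 were higher beyond counting error with median-of-ratios scaling and lower than 0 with total counts (median -0.14). Hadha had 84770 and 87413 normalised counts, a log2 ratio of 0.044 (0.025 to 0.064) that became -0.26 with total counts and -0.16 with the adipocyte markers. Hadhb had 110059 and 117630, a log2 ratio of 0.096 (0.079 to 0.11) that became -0.21 and -0.11. Hadh had 51659 and 60502, a log2 ratio of 0.23 (0.20 to 0.25) that became -0.079. Acaa2 had 115566 and 135364, a log2 ratio of 0.23 (0.21 to 0.24) that became -0.079. The 2 subunits of the trifunctional protein kept nearly the same proportion, with a Hadha to Hadhb ratio per kb of 0.388 (0.383 to 0.392) in the WT and 0.374 (0.369 to 0.379) in the Ucp1-KO library.

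Hadha and Hadhb lie head to head, and the stretch between their RefSeq starts, picked after their values were seen, is shown because the RefSeq starts of the 2 subunits face away from each other across it. Their RefSeq starts are 273 bases apart, while in GENCODE the genes overlap on opposite strands, over 9.76% of the exon length of Hadha and 5.92% of that of Hadhb. Garem2, with 70 and 48 counts, overlaps 21.3% of the Hadha exon length on the opposite strand. The 228 bases that lie before both starts in the promoter table are chr5:30155003-30155230 of GRCm38.p6, written 5′ to 3′ on the plus strand, the strand of Hadhb. It holds no AGGTCA half-site on either strand, and so has no capitals.
Hadha and Hadhb: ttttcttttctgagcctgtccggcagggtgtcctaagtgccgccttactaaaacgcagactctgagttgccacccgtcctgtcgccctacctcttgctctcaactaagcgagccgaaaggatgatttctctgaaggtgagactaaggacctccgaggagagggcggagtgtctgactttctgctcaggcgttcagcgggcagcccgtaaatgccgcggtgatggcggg

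Unsaturated fatty acids need further enzymes. Eci1, Eci2 and Decr1, which move or remove double bonds of unsaturated chains, had a median log2 ratio of 0.19 (-0.11 with total counts and -0.0090 when scaled to the adipocyte markers). Eci1, the main mitochondrial isomerase, had 20554 and 27615 normalised counts, a log2 ratio of 0.43 (0.39 to 0.46). Eci2 had 5375 and 6148, a log2 ratio of 0.19 (0.12 to 0.27), which was -0.11 and -0.0090 under those scalings. Decr1, the dienoyl-CoA reductase, had 38773 and 40058, a log2 ratio of 0.047 (0.018 to 0.076), which was -0.26 and -0.16.

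The electron transfer genes were the highest group by median log2 ratio, 0.59. Etfa and Etfb encode the subunits of the flavoprotein that collects electrons from the acyl-CoA dehydrogenases, and Etfdh the enzyme that hands them to ubiquinone. Etfb had 54096 and 81180 normalised counts, a log2 ratio of 0.59 (0.56 to 0.61). Etfdh had 27780 and 43282, a log2 ratio of 0.64 (0.61 to 0.67). Etfa had 51832 and 65450, a log2 ratio of 0.34 (0.31 to 0.36). All 3 remained above 0 with total counts, at 0.28, 0.33 and 0.030. The subunits did not move by the same amount: the ratio of Etfa to Etfb per kb went from 0.494 (0.486 to 0.502) to 0.415 (0.409 to 0.422). That of Etfdh to Etfa went from 0.385 (0.377 to 0.392) to 0.475 (0.466 to 0.483). Etfb shares 39.6% of its exon length with Etfbl on the same strand, which was not analysed here, so its level is less certain than that of the other 2.

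Of the 3 ketone enzymes, 1 was higher and 2 were within counting error. Acat1, the mitochondrial thiolase that both makes and splits acetoacetyl-CoA, had 27505 and 34133 normalised counts, a log2 ratio of 0.31 (0.28 to 0.34) that became 0.0046 with total counts. Oxct1, the transferase that commits tissues outside the liver to burning ketone bodies, had 9277 and 9108, a log2 ratio of -0.026 (-0.086 to 0.033). Bdh1, the dehydrogenase that interconverts the 2 ketone bodies, was near the limit of detection, with 6 counts in WT (95% Poisson interval 1.24 to 17.5) and 18 counts in Ucp1-KO (8.23 to 34.2). Its log2 ratio of 1.79 has an interval of -0.12 to 4.41, which includes 0, while the interval on the counts as deposited, not halved to read pairs, is 0.49 to 3.51. The ratio of Acat1 to Oxct1 per kb went from 2.48 (2.40 to 2.56) to 3.13 (3.03 to 3.24).

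Outside the members, 52 other genes of the pathway gave 51 that could be examined. Their median log2 ratio was 0.19 (-0.12 with total counts and -0.016 when scaled to the adipocyte markers), 32 lay above 0 and 19 below. At least 2-fold higher were 5 of the 51 and at least 2-fold lower 6, where 7.42% and 9.55% of all genes examined were. Beyond counting error 28 were higher and 17 lower, where 31.5% and 30.5% of all genes were. Ppargc1a, a coactivator of mitochondrial genes, had 4105 and 12332 counts and with them a log2 ratio of 1.89 (1.81 to 1.96). Fabp3, the heart and muscle fatty acid binding protein that brown fat also makes, had 18351 and 49096, a log2 ratio of 1.72 (1.68 to 1.75). In the other direction, Slc25a29, a mitochondrial carrier of basic amino acids, had 181 and 35 counts and so a log2 ratio of -2.06 (-2.90 to -1.32). Acss3, a propionyl-CoA synthetase, had 1942 and 474, which gives -1.73 (-1.95 to -1.53). Lpin1, a phosphatidate phosphatase and coregulator, had 36016 and 10058, which gives -1.54 (-1.59 to -1.50).

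Some genes, picked after their values were seen, fill steps that the members leave out. Slc25a20, the carrier between the carnitine transferases, had a log2 ratio of 0.48 (0.44 to 0.51). Echs1, the short-chain hydratase, had 0.30 (0.26 to 0.33). Cd36, which takes up fatty acids at the cell surface, had 0.25 (0.24 to 0.26). Ppara, a nuclear receptor that drives these enzymes, had 0.32 (0.28 to 0.37), Esrra, the oestrogen-related receptor alpha, 0.10 (0.028 to 0.17), and Pdk4, the kinase that shuts off pyruvate oxidation, 0.75 (0.73 to 0.77). These genes lay within the members' range of -0.34 to 2.94, a wide one whose upper end is Slc27a2 alone. With total counts each is lower by 0.31, which puts Echs1, Cd36 and Esrra below 0. They do not stand for the whole list, in which 32 of the 51 genes examined lay above 0 and 19 below. Among those below, also picked after their values were seen, were Rxra (-0.81), Dbi (-0.79), Ppard (-0.33) and Ech1 (-0.077).

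Neighbouring pathways give the scale. The 16 genes of peroxisomal beta-oxidation had a median log2 ratio of 0.34, with 12 above 0 and 4 below. Ehhadh, the peroxisomal bifunctional enzyme, had 4884 and 16426 counts and stood alone past 2-fold, at 2.05 (1.98 to 2.12). Abcd2 (-0.88) and Abcd3 (0.76), both peroxisomal fatty acid transporters, followed. The 16 genes of the tricarboxylic acid cycle had a median of 0.29 (-0.018 with total counts), with 15 above 0 and none past 2-fold in either direction. Suclg2 (0.62), Cs (0.52) and Idh3b (0.39) were among the furthest from 0. All 12 genes of de novo lipogenesis were lower beyond counting error, with a median of -1.40 and 10 at least 2-fold lower, led by Slc25a1 (-2.25), Fasn (-2.11), Scd2 (-1.93) and Acly (-1.93). Fatty acid oxidation and synthesis genes thus stood on opposite sides of 0 with median-of-ratios scaling, while with total counts the members' median was -0.038.

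**Figure D5:**
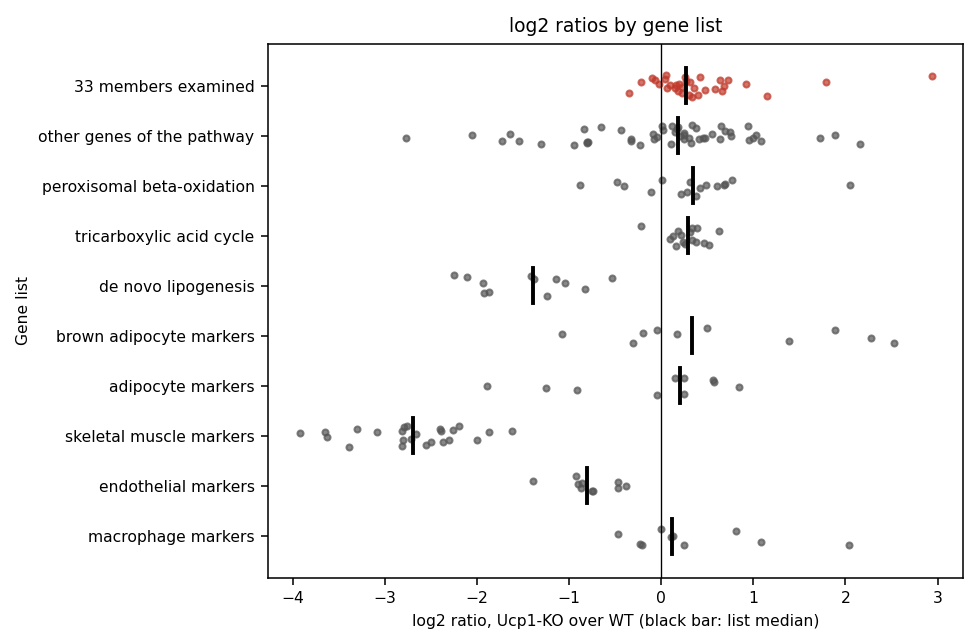
Log2 ratio of Ucp1-KO over WT (horizontal axis) for each gene examined, by list (vertical axis; each point is 1 gene, the black bar the list's median; members in red). The members gather at a median of 0.27, near the tricarboxylic acid cycle at 0.29 and apart from lipogenesis at -1.40 and skeletal muscle markers at -2.69; with total-count scaling every point lies 0.31 further left.

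Markers of cell types were set beside these values. The 24 muscle markers had a median log2 ratio of -2.69, from 375387 to 45678 summed counts, with Pvalb (-3.92), Casq1 (-3.65), Mylpf (-3.63) and Acta1 (-3.39) furthest. All 10 endothelial markers were lower, with a median of -0.81 and a summed share of 0.281% and 0.140% of counts, led by Emcn (-1.39). Of 10 adipocyte markers 6 were above and 4 below 0, with a median of 0.20 (-0.10 with total counts) and 1.22% and 1.16% of counts, and Retn (-1.90) was furthest. Scaled to these adipocyte markers, the members' median was 0.066, with 17 higher and 10 lower beyond counting error. Of 10 brown adipocyte markers 6 were above and 4 below 0, with a median of 0.34 and 0.372% and 0.440% of counts, and Elovl3 (2.52), Dio2 (2.28), Ppargc1a and Prdm16 (1.39) were furthest. Of 10 macrophage markers 6 were above and 4 below 0, with a median of 0.12 (-0.19 with total counts and -0.086 when scaled to the adipocyte markers) and 0.0135% and 0.0138% of counts, and Itgam (2.04) was furthest. The 8 hepatocyte markers summed to 42 and 43 counts. Apoa2, the only gene of that list examined, had 21 and 41 counts and a log2 ratio of 1.24 (0.13 to 2.49), Apoa1 had 16 and 0 counts, Alb had 2 in each, Ttr had 2 and 0, Serpina1a 1 and 0, and Fgb, Tat and Cyp3a11 were at 0 in both libraries. The part of muscle, endothelial, liver and other cells in the members' values was not tested.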

How the data were processed

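RNA was extracted with a Promega kit and, per the labels, made into strand-specific libraries after poly-A enrichment. The deposited values are whole-number counts per gene that the authors made with featureCounts, not normalised. Trim Galore, HISAT2 and the build mm39 come from the submitters' processing notes. Versions, the annotation, and the settings for strand and multiply matching reads are not given in the sources used here. The study's methods describe such steps for its cultured cells. Genes without a symbol (1319) held 0.156% of the WT and 0.121% of the Ucp1-KO counts and stayed in the size factors.

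Normalised counts were obtained with DESeq2 1.42.0 in R 4.3.3 (median of ratios). The log2 ratio is log2 of (Ucp1-KO + 0.5)/(WT + 0.5) on normalised counts, and a gene was examined where its normalised counts averaged 10 or more. Even values were frequent among low counts (70.7% and 73.4% of genes with 1 to 10 counts), though not among counts of 100 to 1000 (49.9% and 50.2%). Whether both mates of a pair were counted is not given in the sources used here. Intervals were therefore computed on read pairs (counts divided by 2), which makes them wider, a choice made after seeing the counts: exact conditional binomial for ratios, Poisson for counts, each at 95%. A count of 0 was taken to allow up to 3 pairs, or 6 counts, a set floor that does not come from these intervals. Positions and canonical transcript lengths are from GENCODE mouse release 39 (GRCm39), joined by symbol for all 34 members. Promoter windows are from RefSeq (GRCm38.p6).

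All members are named. Of each other list the text names up to 4 genes with the largest log2 ratio in size, and of the other pathway genes up to 6 at higher counts, and the values of 3 genes this rule names are not reported here. The members and the lists were chosen with earlier results of these data known. No test was possible with 1 library per genotype. Alternatives were TMM factors (edgeR 4.0.16), total counts with and without genes of mitochondrial DNA, scaling to adipocyte markers, the pseudocount, the minimum count, the 2-fold rule, the interval and sums in place of medians. The scripts were checked on simulated data whose counts were all even, which the deposited counts are not. That check therefore does not bear on the choice to halve the counts.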

Additional observations from a re-analysis of the deposited data

How the results depend on the processing

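No paired analysis was possible because there is only 1 library of WT and 1 of Ucp1-KO tissue, and neither could be left out. Total-count scaling turned the members' median to -0.038, with 11 members higher and 17 lower beyond counting error, and scaling to the adipocyte markers gave 0.066, 17 and 10. With total counts the members Acsl1 (-0.051), Slc27a4 (-0.14), Cpt1a (-0.0022), Crat (-0.12), Acadvl (-0.15), Acadm (-0.038), Acadsb (-0.24), Hadha (-0.26), Hadhb (-0.21), Hadh (-0.079), Acaa2 (-0.079), Eci2 (-0.11) and Decr1 (-0.26) fell below 0. So did the medians of the later steps (-0.14), the auxiliary enzymes (-0.11), the other pathway genes (-0.12), the tricarboxylic acid cycle (-0.018), the adipocyte markers (-0.10), the carnitine shuttle (-0.12) and the macrophage markers (-0.19). With the adipocyte markers Slc27a4 (-0.039), Crat (-0.019), Acadvl (-0.049), Acadsb (-0.14), Hadha (-0.16), Hadhb (-0.11), Eci2 (-0.0090) and Decr1 (-0.16) did so, with the medians of the later steps (-0.041), the auxiliary enzymes (-0.0090), the other pathway genes (-0.016), the carnitine shuttle (-0.019) and the macrophage markers (-0.086). Each of these scalings adds 1 constant to every log2 ratio. Out of counts not of mitochondrial DNA the members held 2.80% (WT) and 3.37% (Ucp1-KO). Total counts without the genes of mitochondrial DNA gave a median of 0.26 with 25 members higher and 4 lower, as did TMM factors. Intervals on the counts as deposited gave 28 members higher and 4 lower, since Bdh1 and Cpt1b became higher and Slc27a1 lower. The number at least 2-fold higher was 2 or 3 under every alternative and 0 were lower, since Bdh1, with 6 and 18 counts, or Acss1 fell out. A minimum mean of 50 leaves Bdh1 without a value. Acsl3, Cpt1b and Etfb share at least 10% of their exon length with a gene on the same strand. Leaving them out was added after seeing the data and gave a median of 0.24 over 30 members, 24 higher and 3 lower. The hepatocyte list, with 1 gene examined, was not recomputed. Depth limits Acsl6 and Bdh1, whose intervals are wide. The interval of Cpt1b is wide too, and the part of the overlap with Gm44502 in its low count was not tested.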
